A study of Homo sapiens with 9 samples.

Results

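The response that A549 cells shared when exposed to either of 2 kinds of apoptotic extracellular vesicle comprised 1471 of the 16947 genes tested. A549 is an established human lung adenocarcinoma line. The cells received phosphate-buffered saline (control) or vesicles from cells killed with cisplatin (DDP_apoEV) or with staurosporine (STS_apoEV), and RNA was taken after 96 h. Each of the 3 groups held 3 libraries. Nothing in the labels says which cells shed the vesicles or that the libraries of a group were separate cultures, so p-values measure the spread between these libraries, which may be technical. Cells given cisplatin or staurosporine without vesicles were not analysed here, and both vesicle groups were compared with the same 3 control libraries.

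Genes were selected on 2 measurements. The average of both vesicle group means, with equal weight, had to differ from control at an adjusted p under 0.05 in edgeR's quasi-likelihood test, which called 3171 genes, or 18.7% of those tested. All 3 libraries of each vesicle group also had to lie on the same side of all 3 control libraries in CPM, the read count of a gene scaled to library size. That left 658 higher genes, or 3.88% of those tested, and 813 lower genes, or 4.8%, together 8.68%, which are called common here. Their differences from control are therefore a description of what the choice required and carry no test of their own below. The choice did not use the size of the difference between the vesicle types, which was tested over all genes. It did require both types to lie on the same side of control, so that difference is not free of the choice.

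Apoptotic vesicles are membrane-bound pieces that a dying cell sheds, and they carry its proteins, lipids and RNA. Phosphatidylserine on their surface marks them for uptake, either directly by receptors or through bridging proteins, and the taken-up material is broken down in lysosomes, which frees lipids and cholesterol. Recipient cells are known to alter adhesion, cytokine and proliferation programmes after such contact. In bulk RNA, a changed share of a kind of cell and a changed amount of RNA per cell cannot be told apart.

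The library totals ran from 14356195 to 15492993 counts in control, from 15949255 to 16526399 with DDP_apoEV and from 13799950 to 14816996 with STS_apoEV. Defining markers of A549 and other epithelial cells summed to between 28301 and 29399 CPM in control, between 20356 and 21747 under DDP_apoEV and between 26604 and 27043 with STS_apoEV. Markers of macrophages and other leukocytes summed to at most 21.5 CPM in control, 20.1 under DDP_apoEV and 45.7 under STS_apoEV, with AIF1, CD163 and MS4A1 at 0 in every library. Fibroblast, endothelial and erythroid or platelet markers stayed at or below 8.23 CPM in each library. Alveolar type II markers, for the cell type A549 is held to derive from, summed to 39.8 to 56.4 CPM, and SFTPA1 was at 0 throughout.

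The rises and falls were of similar number and mostly small. Of the 1471 common genes, 461 differed from control at least 1.5-fold with both vesicle types, 218 at least 2-fold with both (115 higher and 103 lower), and 610 less than 1.5-fold with both. The median log2 fold change of the higher genes was 0.45 with DDP_apoEV and 0.65 with STS_apoEV, and that of the lower genes was −0.43 and −0.57, against −0.00 for the average over all genes tested. When each vesicle type was tested alone against control, 15.5% of genes were called with DDP_apoEV and 32.8% with STS_apoEV, and 848 of the common genes were called with both. The 3 libraries did not overlap with control for 32.2% of all genes with DDP_apoEV and for 43.3% with STS_apoEV. The condition on sides alone, without the test of the average, held for 1797 genes or 10.6%, and 1700 of the called genes did not meet it. With all libraries 1404 genes, 8.28% of those tested, were called higher and 1767 genes, 10.4%, were called lower. Removing control library 2 lowered these numbers to 877 and 1299.

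**Figure D1:**
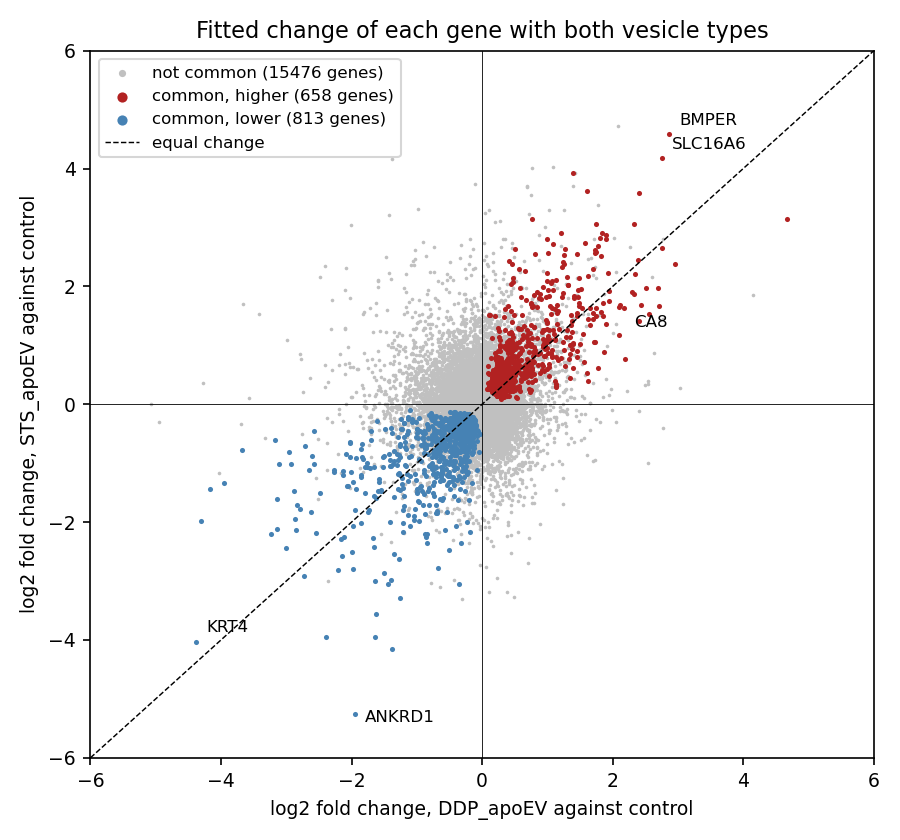
Log2 fold change against control of each tested gene with DDP_apoEV (horizontal axis) and STS_apoEV (vertical axis), with common genes in red (658 higher) or blue (813 lower) and the others in grey. Common genes lie only in the upper right and lower left of the plot because of how they were chosen, and 6 genes lie outside the plotted range.

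The test between the vesicle types called 601 of the common genes, or 40.9%, against 39.7% of all genes tested (20.2% higher and 19.5% lower with STS_apoEV). That share is close to the background. Where the difference was called, STS_apoEV lay farther from control in 454 genes and DDP_apoEV in 147. For 798 common genes, 54.2%, the 95% interval of the difference lay within 1.5-fold in either direction, against 40.3% of all genes. Common genes also had more reads, with a median log2 CPM of 4.81 against 3.84 over all tested genes. The part of this, and of the condition on sides, in the narrower intervals was not tested. Among the 218 common genes at least 2-fold from control with both types, the test between types called 71, a smaller share than the 39.7% of all genes. In 23 of the 218 the interval lay within 1.5-fold, also a smaller share than the 40.3% of all genes.

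The condition on sides admitted genes by small margins. REXO2, an RNA exonuclease, was just inside with 38.7, 32.3 and 39.8 CPM in control, 48.8, 45.7 and 39.8 under DDP_apoEV and 44.8, 45.8 and 47.9 under STS_apoEV, so that its highest control library and its lowest DDP_apoEV library were both at 39.8. TOP2A, the topoisomerase that untangles dividing chromosomes, was just outside on the other side, with DDP_apoEV library 3 at 896 CPM beside control library 3 at 896. PRKCI, an atypical protein kinase C, was also outside, and TMTC3 was inside.

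Of the 14 genes with the largest shared rise, ranked by the smaller of their vesicle changes, SLC16A6 and BMPER stood first. SLC16A6 encodes a membrane transporter of the monocarboxylate family that carries ketone bodies and taurine, and lies at chr17:68267026-68291267 (hg38). It measured 2.73, 3.83 and 4.16 CPM in control, 28.1, 25.2 and 19.00 under DDP_apoEV and 65.1, 59.6 and 70.04 under STS_apoEV, in the order of libraries 1 to 3, as in all such lists below. Every vesicle library was above every control library, and every STS_apoEV library was above every DDP_apoEV library. The rise was 6.75-fold with DDP_apoEV and 18.2-fold with STS_apoEV, and the vesicle types differed by 1.43 ± 0.119 on the log2 scale (± SE, here and below; adjusted p 5.57e-10). SLC16A6 overlaps ARSG on the other strand, and the counting is not stated to use strand, so reads of the pair cannot be told apart.

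BMPER, a secreted protein that binds bone morphogenetic proteins and tunes their signal, measured 0.586, 0.410 and 0.139 CPM in control, 2.81, 3.29 and 2.41 under DDP_apoEV and 9.61, 9.24 and 9.43 under STS_apoEV. It was the lowest of the leading genes at the start, under 1 CPM in each control library. The log2 rise was 2.87 ± 0.343 with DDP_apoEV and 4.60 ± 0.319 with STS_apoEV, which differed (adjusted p 5.64e-07). ANKRD22, a small ankyrin-repeat membrane protein, measured 4.36, 1.37 and 2.15 CPM in control, 13.4, 13.9 and 12.8 under DDP_apoEV and 20.97, 22.2 and 23.3 under STS_apoEV. Control library 1 was the highest of its group and still below the vesicle libraries, which did not overlap between the types.

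ABLIM3, an actin-binding LIM protein, measured 4.29, 3.69 and 4.09 CPM in control, 16.4, 16.6 and 13.6 under DDP_apoEV and 16.1, 16.5 and 13.2 under STS_apoEV. The 6 vesicle libraries interleaved, and the difference of STS_apoEV minus DDP_apoEV had a 95% interval of −0.31 to 0.25 on the log2 scale. SOX2, a transcription factor of stem and airway basal cells, measured 2.47, 1.03 and 0.972 CPM in control, 4.001, 5.30 and 4.83 under DDP_apoEV and 4.77, 4.59 and 4.65 under STS_apoEV, with an interval of −0.55 to 0.53. CLMP, an adhesion molecule of the coxsackie and adenovirus receptor family, rose by 2.30 ± 0.190 and 1.91 ± 0.194 on the log2 scale with DDP_apoEV and STS_apoEV. Its interval of −0.73 to −0.05 lay below 0 and reached past 1.5-fold, and the test of the difference gave an adjusted p of 0.0643.

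DCLK1, a microtubule-binding kinase, measured 2.60, 3.56 and 3.61 CPM in control, 10.9, 10.4 and 11.5 under DDP_apoEV and 18.3, 19.97 and 20.3 under STS_apoEV. SCG2, a secretogranin of dense-core granules, measured 1.37, 0.821 and 1.11 CPM in control, 3.13, 3.72 and 4.32 under DDP_apoEV and 9.40, 9.24 and 9.22 under STS_apoEV. For both, each STS_apoEV library was above each DDP_apoEV library, with differences of 0.84 ± 0.138 and 1.32 ± 0.215. The opposite order held for CA8, a carbonic anhydrase-related protein, at 17.6, 20.6 and 18.9 CPM in control, 84.6, 87.5 and 84.4 under DDP_apoEV and 60.2, 55.9 and 60.96 under STS_apoEV. TNFRSF9, the T cell costimulatory receptor 4-1BB, followed CA8 in that order with a log2 rise of 2.10 ± 0.158 with DDP_apoEV and 1.66 ± 0.161 with STS_apoEV (adjusted p of the difference 0.0124). The remaining members of the 14 were CREB5, GLIPR1, AMPD3 and MYH15, with log2 rises of 1.90, 1.74, 1.69 and 2.44 with DDP_apoEV and 2.87, 2.57, 2.29 and 1.69 with STS_apoEV. GLIPR1 overlaps KRR1 on the other strand.

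**Figure D2:**
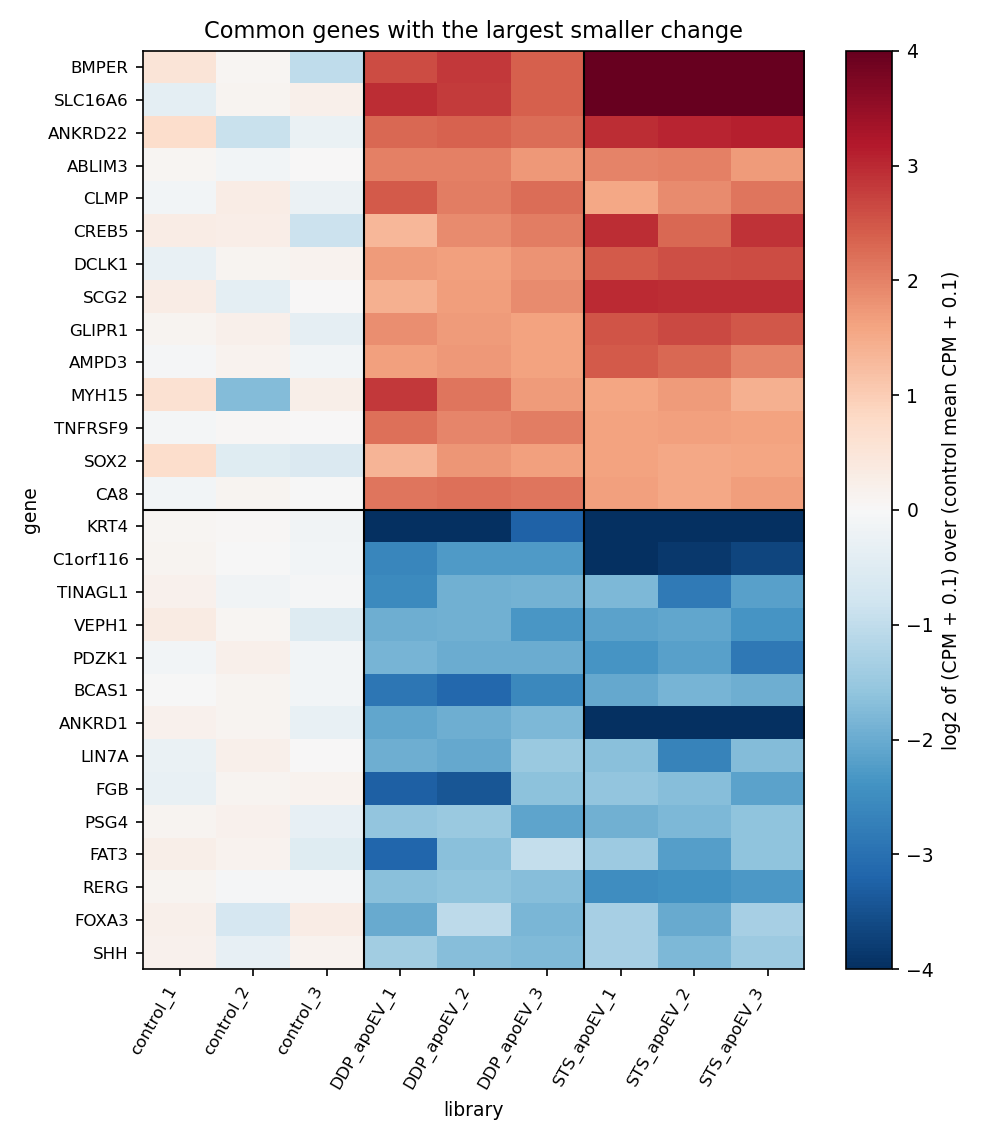
Log2 of (CPM + 0.1) over (mean control CPM + 0.1) in each of the 9 libraries for the 14 risen (upper block) and 14 fallen (lower block) common genes with the largest smaller change, with colours limited to ±4. The 3 control columns stay near 0 for most genes, but not for some with few reads, such as MYH15 in library 2 and BMPER in library 3. The 6 vesicle columns have 1 colour per gene, deepest for BMPER and SLC16A6 among the risen and for KRT4 among the fallen. ANKRD1 and C1orf116 are as deep under STS_apoEV.

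KRT4, a keratin of mucosal epithelia, fell the most of the genes lower with both vesicles. It lies at chr12:52806549-52814116 and measured 57.5, 56.6 and 48.8 CPM in control, 1.0, 1.22 and 5.65 under DDP_apoEV and 3.37, 3.24 and 3.31 under STS_apoEV. DDP_apoEV library 3 was higher than the others of its group and still far below control, and without it the average log2 change of KRT4 moved from −4.21 to −4.82. The change was −4.38 ± 0.493 on the log2 scale with DDP_apoEV and −4.04 ± 0.484 with STS_apoEV, with a wide interval of the difference, −1.20 to 1.88. C1orf116, an androgen-responsive epithelial gene, measured 25.5, 23.7 and 22.1 CPM in control, 3.81, 4.88 and 4.89 under DDP_apoEV and 1.26, 1.55 and 1.76 under STS_apoEV, and its groups lay in the order control, DDP_apoEV, STS_apoEV without overlap.

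BCAS1, first described as amplified in breast cancer, measured 43.9, 48.4 and 41.2 CPM in control, 5.88, 4.94 and 7.43 under DDP_apoEV and 10.7, 12.3 and 11.5 under STS_apoEV. Its DDP_apoEV libraries lay below its STS_apoEV libraries, a difference of 0.92 ± 0.142. RERG, a small GTPase that restrains growth, went the other way at 29.5, 26.8 and 26.7 CPM in control, 8.63, 9.08 and 8.51 under DDP_apoEV and 4.91, 5.06 and 5.56 under STS_apoEV. TINAGL1, a matricellular basement membrane protein, VEPH1, PDZK1, a scaffold of transporters, and LIN7A, a polarity scaffold, changed by −2.16, −2.12, −1.99 and −1.85 with DDP_apoEV. With STS_apoEV the values were −2.28, −2.25, −2.51 and −2.01. The test between the types called none of these 4, with adjusted p from 0.163 to 0.8, and their intervals reached past 1.5-fold.

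The developmental ligand SHH and the hepatic and goblet-cell transcription factor FOXA3 were also among the 14. SHH measured 6.05, 4.24 and 5.90 CPM in control, 2.001, 1.58 and 1.52 under DDP_apoEV and 2.10, 1.48 and 1.90 under STS_apoEV. FOXA3 measured 4.42, 2.39 and 4.72 CPM in control, 0.875, 1.83 and 1.02 under DDP_apoEV and 1.47, 0.877 and 1.48 under STS_apoEV. In both, the vesicle libraries interleaved between types and lay below each control library. FAT3, an atypical cadherin, and PSG4, a pregnancy-specific glycoprotein, changed by −1.76 and −1.78 on the average log2 scale. PSG4 has near-identical paralogs, so its reads are uncertain.

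The genes that follow were ranked by how tightly the 2 vesicle types matched among the 100 common protein-coding genes with a mean log2 CPM of 1 or more that were at least 2-fold from control with both, and since they were ranked by that measure, their agreement is a description. SMOX, the oxidase that turns spermine into spermidine, lies at chr20:4120980-4187747 and measured 63.6, 54.2 and 66.8 CPM in control, 141, 139.6 and 117 under DDP_apoEV and 134, 151 and 134 under STS_apoEV. The DDP_apoEV and STS_apoEV libraries overlapped, and the 95% interval of their log2 difference was −0.10 to 0.25. ODC1, the first enzyme of polyamine synthesis, was common as well at 205, 187 and 177 CPM in control, 285, 283 and 269 under DDP_apoEV and 308, 313 and 326 under STS_apoEV. It rose 1.47-fold and 1.67-fold, a difference with an adjusted p of 0.044.

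IL4R, the interleukin-4 receptor chain, measured 8.65, 7.73 and 6.94 CPM in control, 16.8, 18.1 and 15.8 under DDP_apoEV and 16.8, 17.6 and 15.4 under STS_apoEV. RPS6KA5, the nuclear kinase MSK1, rose from between 5.79 and 8.40 CPM to between 13.3 and 16.0 CPM over the 6 vesicle libraries and overlaps DGLUCY on the other strand. The intervals of the difference were −0.28 to 0.23 for IL4R and −0.30 to 0.28 for RPS6KA5.

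On the falling side the closest matches were FGFR4, FGFBP1, UPK1B, PLCXD3 and EFEMP1. FGFR4, a fibroblast growth factor receptor, measured 48.5, 41.7 and 46.02 CPM in control, 17.6, 19.6 and 18.7 under DDP_apoEV and 15.5, 19.1 and 15.8 under STS_apoEV. FGFBP1, a carrier that releases such factors from the matrix, measured 28.4, 31.8 and 29.7 CPM in control, 11.9, 8.47 and 10.5 under DDP_apoEV and 9.19, 12.5 and 11.1 under STS_apoEV. They changed by 2.56-fold and 2.83-fold on average. UPK1B, a tetraspanin of the urothelial plaque, fell 2.89-fold, PLCXD3, a phospholipase-like protein, 2.86-fold, and EFEMP1, the matrix protein fibulin-3, 2.36-fold.

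**Figure D3:**
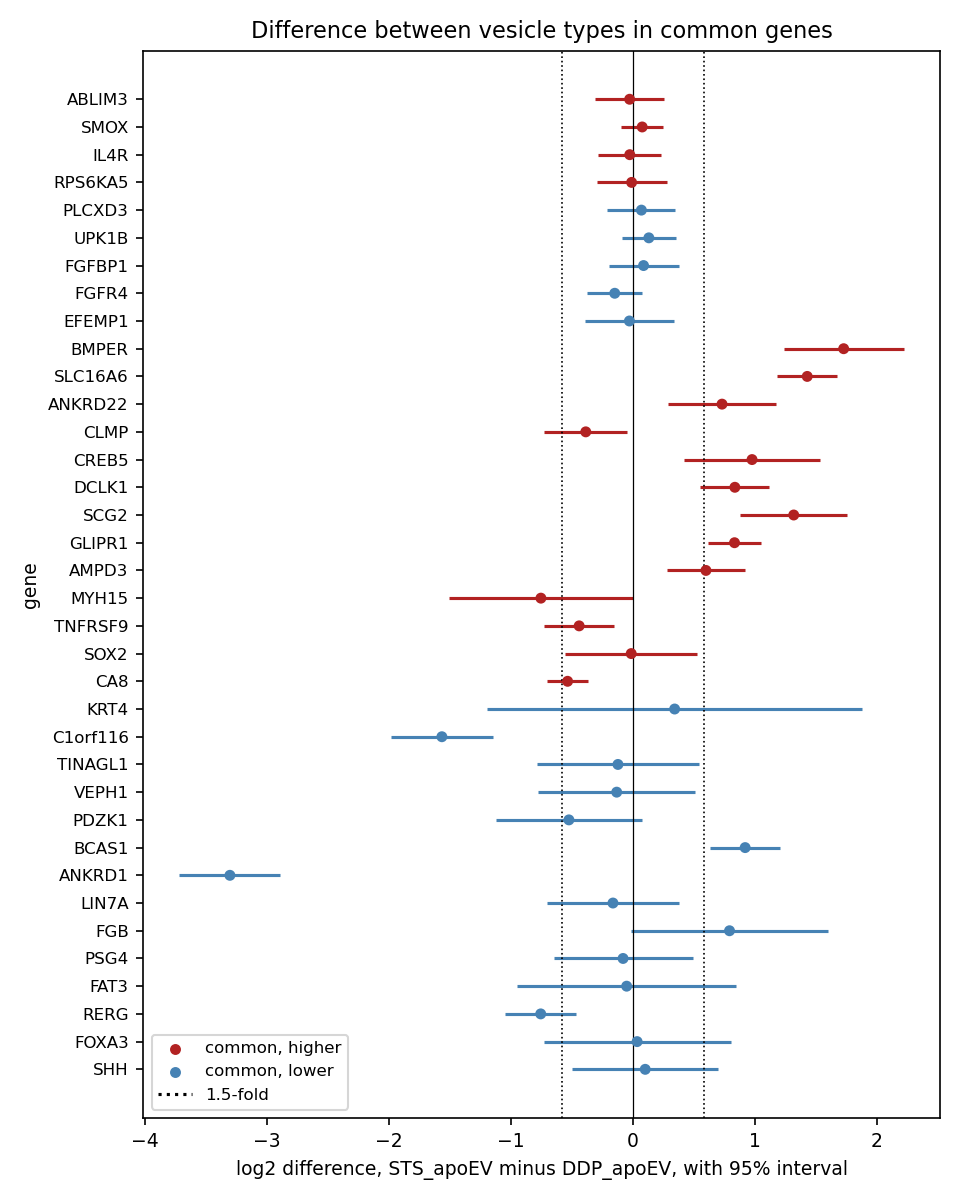
Log2 difference of STS_apoEV minus DDP_apoEV with its 95% interval for 9 of the 10 most closely matched genes (upper rows) and the other genes of largest shared change, red for risen and blue for fallen, with dotted lines at 1.5-fold. SMOX, IL4R and the others of the upper rows lie inside the dotted lines, while ANKRD1 lies at −3.30 and BMPER at 1.73.

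Of 29 epithelial keratin and junction genes tested, 10 were common lower, 34.5% against 4.8% of all genes, and 0 common higher. The median average change was −0.36 against −0.00 for all genes. Keratins form the intermediate filaments of epithelial cells and E-cadherin, CDH1, joins neighbouring cells. KRT18 measured 4204, 3819 and 4074 CPM in control, 2200.4, 2239 and 2384 under DDP_apoEV and 2211, 2368 and 2139 under STS_apoEV. Its vesicle libraries were close to each other, with an interval of −0.16 to 0.12 for the difference. KRT8, its partner in the filament, fell 1.78-fold with DDP_apoEV and 1.34-fold with STS_apoEV, which differed (adjusted p 5.71e-05). KRT8 and KRT18 overlap on opposite strands in the annotation.

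CDH1 measured 16.1, 16.3 and 19.9 CPM in control, 7.69, 14.2 and 11.8 under DDP_apoEV and 8.98, 10.8 and 8.09 under STS_apoEV. No vesicle library reached the lowest control library, and the libraries of the vesicle types overlapped. CGN, the tight-junction protein cingulin, measured 10.9, 10.1 and 9.51 CPM in control, 4.44, 4.21 and 4.13 under DDP_apoEV and 4.07, 3.64 and 3.38 under STS_apoEV and fell 2.55-fold on average. KRT80 and PKP2, a desmosomal plakophilin, changed by −0.50 and −0.57 with DDP_apoEV and by −2.47 and −2.13 with STS_apoEV on the log2 scale. EPCAM was common but lost its call when any of the 3 control libraries, DDP_apoEV library 1 or STS_apoEV library 2 was left out.

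CEACAM6, an adhesion glycoprotein anchored by lipid, measured 797, 852 and 898 CPM in control, 84.2, 88.9 and 121 under DDP_apoEV and 429, 399 and 437 under STS_apoEV. The fall was 8.66-fold with DDP_apoEV and 2.01-fold with STS_apoEV, a difference of 2.10 ± 0.111. CEACAM5, the carcinoembryonic antigen, changed by −4.31 and −1.98 on the log2 scale at no more than 4.51 CPM in control. Reads of these paralogs may be split between them.

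Of 20 mesenchymal genes tested, 6 were common higher, 30% against 3.88% of all genes, and 0 common lower. The list median was 0.44 with DDP_apoEV, −0.02 with STS_apoEV and 0.11 on average. The average contrast also called 2 members lower that were not common, the matrix protein THBS1 (0.01 with DDP_apoEV and −1.40 with STS_apoEV) and S100A4 (−0.35 and −0.03). VIM, the mesenchymal filament vimentin, measured 317, 287 and 324 CPM in control, 461, 476 and 401 under DDP_apoEV and 356, 389.8 and 389.8 under STS_apoEV. CD44, the hyaluronan receptor, measured 343, 341 and 343 CPM in control, 525, 571 and 472 under DDP_apoEV and 479, 484 and 483 under STS_apoEV. ITGA5, the fibronectin receptor chain, measured 10.7, 11.4 and 12.9 CPM in control, 19.3, 23.3 and 17.2 under DDP_apoEV and 20.3, 19.2 and 18.7 under STS_apoEV. In all 3 the vesicle libraries lay above control, and the rise with STS_apoEV was 1.22-fold, 1.41-fold and 1.67-fold. VIM rose more with DDP_apoEV (adjusted p of the difference 0.0117). The test between types called neither CD44 nor ITGA5 (adjusted p 0.202 and 0.837), with intervals of −0.26 to 0.03 and −0.29 to 0.21. The transcription factor ZEB2, which represses epithelial genes, rose 1.89-fold with DDP_apoEV and 1.49-fold with STS_apoEV, and the matrix glycoprotein TNC rose by 1.5 and 1.03 on the log2 scale. FBN1, a microfibril glycoprotein, rose by 1.07 with STS_apoEV, and its change of 0.45 with DDP_apoEV was not called alone (adjusted p 0.126). Fibroblast markers summed to at most 4.35 CPM in any library, with FAP and POSTN at 0.

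Of 20 basement membrane genes tested, 4 were common higher, 20% against 3.88% of all genes. Only 1 was common lower, 5% against 4.8% of all genes. The collagen IV chains COL4A6 and COL4A5 rose. COL4A6 measured 5.40, 6.63 and 7.70 CPM in control, 15.5, 16.5 and 16.8 under DDP_apoEV and 30.5, 29.5 and 27.6 under STS_apoEV, with the groups in the order control, DDP_apoEV, STS_apoEV and no overlap. COL4A5, its neighbour on the X chromosome, rose 1.48-fold and 2.41-fold. LAMA4, a laminin chain, rose by 3.15 with STS_apoEV on the log2 scale, while its change of 0.76 with DDP_apoEV was not called alone (adjusted p 0.165). COL4A4 was lower, at −1.29 and −0.55.

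Genes of sterol synthesis and uptake were among the lower genes. Cells make cholesterol through the mevalonate pathway and take it up from lipoproteins, and both are switched by the factor SREBP2 according to membrane cholesterol. Of 25 genes tested, 10 were common lower, 40% against 4.8% of all genes, and 0 were common or called higher. The average contrast called 17 of the 25 lower, where 10.4% of all genes were so called. The median average change was −0.28. HMGCS1, which makes the precursor of mevalonate, measured 511, 516 and 433 CPM in control, 300.0, 289 and 306 under DDP_apoEV and 228, 223 and 245 under STS_apoEV. The groups lay in the order control, DDP_apoEV, STS_apoEV with no overlap, and the difference between types was −0.36 ± 0.0745.

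Further along the pathway, MVD and CYP51A1 fell 1.38-fold and 1.42-fold on average. MVD fell more with DDP_apoEV (adjusted p of the difference 0.00476). ACAT2, HSD17B7 and STARD4, a sterol carrier, were also common, with average log2 changes of −0.59, −0.29 and −0.29. STARD4 lost its call without control library 2.

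ABCA1, the pump that exports cholesterol to apolipoproteins and is switched on by oxysterols through LXR, rose. It measured 5.21, 5.13 and 4.72 CPM in control, 29.1, 30.2 and 20.2 under DDP_apoEV and 14.4, 12.5 and 13.2 under STS_apoEV. Each vesicle library was above the highest control library by a wide margin. The rise was 5.28-fold with DDP_apoEV and 2.66-fold with STS_apoEV, a difference of −0.99 ± 0.137 (adjusted p 4.86e-07). Of 13 sterol efflux and LXR genes tested, ABCA1 was the 1 common higher, 7.69% against 3.88% of all genes. ABCG2, a drug and urate pump, was the 1 common lower, 7.69% against 4.8%, and the list median was 0.05.

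Targets of YAP and TAZ were also among the lower genes, with larger falls under STS_apoEV. YAP and TAZ are coactivators that enter the nucleus when the Hippo kinases are off and bind DNA through TEAD factors, and their targets report cell attachment and density. Of 24 tested, 9 were common lower, 37.5% against 4.8% of all genes, and 1, NT5E, common higher, 4.17% against 3.88%. The medians were −0.07 with DDP_apoEV and −0.69 with STS_apoEV. The RefSeq promoters of the 2 targets with the largest average fall are shown because both hold the letters bound by TEAD, GGAATG, in capitals, searched on both strands in the 250 bases before the gene start. The windows printed are chr10:90921088-90921337 upstream of ANKRD1 and chr6:131951373-131951622 upstream of CCN2, both on the minus strand (GRCh38.p14).
ANKRD1: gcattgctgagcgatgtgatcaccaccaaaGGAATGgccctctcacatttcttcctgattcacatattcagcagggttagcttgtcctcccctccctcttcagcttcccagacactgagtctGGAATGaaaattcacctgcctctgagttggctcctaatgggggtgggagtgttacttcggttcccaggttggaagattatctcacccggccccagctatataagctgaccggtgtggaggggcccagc
CCN2: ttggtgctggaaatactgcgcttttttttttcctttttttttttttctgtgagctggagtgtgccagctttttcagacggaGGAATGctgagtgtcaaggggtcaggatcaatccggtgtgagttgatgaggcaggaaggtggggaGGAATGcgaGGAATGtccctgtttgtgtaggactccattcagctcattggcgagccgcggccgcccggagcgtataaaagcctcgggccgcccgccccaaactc
The ANKRD1 promoter holds 2 such matches and that of CCN2 holds 3. Of the 8 common lower targets with an entry, 4 (ANKRD1, CCN2, NUAK2 and TGFB2) hold the letters, against 11.9% of all 27305 promoters, 9.4% of those of tested genes and 13.04% of those of common lower genes. A match is a description of the letters and not a bound site.

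ANKRD1, a nuclear and sarcomeric ankyrin-repeat protein, measured 56.5, 53.8 and 40.9 CPM in control, 11.9, 12.9 and 14.4 under DDP_apoEV and 1.40, 0.809 and 1.76 under STS_apoEV. The fall was 3.86-fold with DDP_apoEV and 38.05-fold with STS_apoEV, and each group was clear of the next. CCN2, the matricellular growth factor also called CTGF, measured 34.6, 34.9 and 33.3 CPM in control, 14.1, 14.1 and 14.8 under DDP_apoEV and 3.72, 3.17 and 3.59 under STS_apoEV. CCN1, its relative, measured 55.4, 45.4 and 35.9 CPM in control, 28.7, 26.4 and 30.8 under DDP_apoEV and 6.45, 6.88 and 6.48 under STS_apoEV. The vesicle types differed by −2.04 ± 0.140 for CCN2 and −2.11 ± 0.140 for CCN1.

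Some targets entered the common set by a small margin. AMOTL2, a junctional binding partner of YAP, measured 62.1, 55.7 and 58.4 CPM in control, 49.8, 54.2 and 51.2 under DDP_apoEV and 14.6, 11.3 and 13.2 under STS_apoEV. The highest DDP_apoEV library was just under the lowest control library, DDP_apoEV alone was not called (adjusted p 0.171), and the fall with STS_apoEV was 4.51-fold. TGFB2, a growth factor, did likewise at 45.6, 47.5 and 43.03 CPM in control, 34.2, 42.5 and 39.6 under DDP_apoEV and 11.1, 9.78 and 13.3 under STS_apoEV, with an adjusted p of 0.134 for DDP_apoEV alone. LATS2, a Hippo kinase that YAP itself switches on, AJUBA, GADD45B and NUAK2 changed by −0.49, −0.34, −0.54 and −0.43 with DDP_apoEV and by −0.95, −1.44, −1.83 and −1.36 with STS_apoEV. NT5E, the surface enzyme CD73 that makes adenosine, measured 55.9, 60.5 and 68.9 CPM in control, 123, 115 and 116 under DDP_apoEV and 133, 124 and 143 under STS_apoEV, and rose 1.91-fold and 2.16-fold, against the direction of the list.

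Mitosis genes were among the lower genes by small factors, and replication genes were not. Of 31 mitosis genes tested, 12 were common lower, 38.7% against 4.8% of all genes, and 0 higher. The average contrast called 25 lower, where 10.4% of all genes were so called. The list medians were −0.12 with DDP_apoEV and −0.47 with STS_apoEV. Of 36 DNA replication genes, 20 were called lower by the average contrast, beside the same 10.4%, and 0 were common. Their medians were 0.20 with DDP_apoEV and −0.63 with STS_apoEV. CDK1, the kinase that drives entry into mitosis, measured 232, 235 and 232 CPM in control, 199, 176 and 194 under DDP_apoEV and 180.5, 165 and 203 under STS_apoEV. CENPF, a kinetochore protein, measured 414, 447 and 392 CPM in control, 338, 324 and 348 under DDP_apoEV and 301, 245 and 309.5 under STS_apoEV. In both genes the highest vesicle library stayed below the lowest control library. The test between types called CENPF (adjusted p 0.0147) and not CDK1, whose interval was −0.21 to 0.10.

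ASPM, which organises spindle poles, fell 1.29-fold on average, KIF20A, a kinesin of cytokinesis, 1.38-fold, CCNA2, cyclin A, 1.37-fold and KIF11, the spindle-pole kinesin, 1.29-fold. The other common members were ANLN, CENPA, CENPE, ECT2, KIF4A and UBE2C. MKI67, the Ki-67 proliferation antigen, was not common, at 248, 265 and 236 CPM in control, 230.3, 277 and 242 under DDP_apoEV and 177, 156 and 163 under STS_apoEV, since DDP_apoEV overlapped control. KIF20A and CCNA2 overlap other genes on the opposite strand.

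Some genes of NF-kB signalling were among the higher genes. NF-kB factors are held in the cytoplasm by inhibitors that they themselves switch on, so feedback genes are among their best known targets. Of 28 tested, 8 were common higher, 28.6% against 3.88% of all genes, and 0 lower. The average contrast called 17 higher and 2 lower, where 8.28% and 10.4% of all tested genes were so called. The list medians were 0.03 with DDP_apoEV and 0.78 with STS_apoEV. The promoters of 2 feedback and survival targets are printed with matches to the NF-kB consensus, both strands searched, in capitals. The windows printed are chr6:137867009-137867258 for TNFAIP3 and chr11:102317234-102317483 for BIRC3, both on the plus strand and placed by the gene start in RefSeq, which differs from the start in the deposited tables.
TNFAIP3: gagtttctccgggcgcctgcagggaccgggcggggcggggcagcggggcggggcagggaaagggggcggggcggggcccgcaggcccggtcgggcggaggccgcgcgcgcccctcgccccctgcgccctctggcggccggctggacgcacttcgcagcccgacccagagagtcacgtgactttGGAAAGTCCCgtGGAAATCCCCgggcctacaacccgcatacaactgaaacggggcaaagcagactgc
BIRC3: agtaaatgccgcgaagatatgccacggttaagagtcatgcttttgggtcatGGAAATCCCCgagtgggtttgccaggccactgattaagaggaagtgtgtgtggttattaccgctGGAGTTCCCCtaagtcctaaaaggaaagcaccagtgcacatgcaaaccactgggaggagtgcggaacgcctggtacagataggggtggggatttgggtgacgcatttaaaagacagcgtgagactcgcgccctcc
Each holds 2 matches. Of the 7 common members with an entry, 4 (IL32, NFKBIA, TNFAIP3 and BIRC3) hold at least 1, against 5.05% of all promoters, 5.95% of those of tested genes and 8.25% of those of common higher genes.

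TNFAIP3, the ubiquitin-editing enzyme A20 that shuts the pathway down, measured 6.64, 7.73 and 9.30 CPM in control, 20.6, 22.4 and 13.2 under DDP_apoEV and 48.9, 42.6 and 44.6 under STS_apoEV. NFKBIA, the inhibitor IkB-alpha, measured 64.3, 52.1 and 66.6 CPM in control, 95.6, 109.6 and 82.1 under DDP_apoEV and 90.9, 96.7 and 84.1 under STS_apoEV. RELB, a subunit of the noncanonical pathway, measured 15.9, 14.02 and 15.5 CPM in control, 30.3, 33.8 and 27.1 under DDP_apoEV and 42.3, 43.6 and 34.7 under STS_apoEV. TNFAIP3 rose 2.38-fold with DDP_apoEV and 5.76-fold with STS_apoEV, a difference of 1.28 ± 0.154, whereas NFKBIA rose 1.57-fold and 1.49-fold with an interval of −0.29 to 0.13. RELB rose 2.001-fold and 2.65-fold.

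NFKB2, the other noncanonical subunit, rose more with DDP_apoEV, 1.75-fold against 1.33-fold (adjusted p 3.77e-04). BIRC3, an inhibitor of apoptosis, measured 117, 118 and 111 CPM in control, 153, 149 and 140.3 under DDP_apoEV and 185, 159.7 and 194 under STS_apoEV. The cytokine IL11 measured 3.32, 3.69 and 4.03 CPM in control, 19.1, 16.4 and 14.7 under DDP_apoEV and 6.52, 7.56 and 4.72 under STS_apoEV. Its DDP_apoEV libraries were the highest, by −1.41 ± 0.171 for STS_apoEV minus DDP_apoEV. IL32 rose 1.38-fold and 2.62-fold. CSF2, the colony factor GM-CSF, was common below 1 CPM in every library and lost its call without control library 1. Summed leukocyte markers were higher under STS_apoEV than in control, as given above. Of the 3 leukocyte markers tested 1, the integrin ITGAX, was common higher, with log2 changes of 0.51 and 2.63, and their part in the result was not tested.

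Fibrinogen genes were among the lower genes. A549 cells express a number of liver proteins, and hepatocytes secrete the 3 fibrinogen chains under HNF4A and acute-phase control. Of 13 genes tested in the wider acute-phase and coagulation list, 5 were common lower, 38.5% against 4.8% of all genes. The complement protease C1S was the 1 common higher, 7.69% against 3.88%. The medians of that list were −1.74 with DDP_apoEV and 0.30 with STS_apoEV. FGA measured 47.8, 52.9 and 64.8 CPM in control, 9.69, 10.1 and 14.7 under DDP_apoEV and 22.8, 25.9 and 26.2 under STS_apoEV. FGG measured 8.07, 7.25 and 9.09 CPM in control, 0.563, 0.914 and 1.65 under DDP_apoEV and 4.91, 4.59 and 4.43 under STS_apoEV. FGB measured 6.05, 8.14 and 8.33 CPM in control, 0.688, 0.609 and 2.35 under DDP_apoEV and 2.45, 2.23 and 1.62 under STS_apoEV. FGA and FGG fell more with DDP_apoEV, by 1.12 ± 0.146 and 2.15 ± 0.282, while the test of FGB gave an adjusted p of 0.113. FGL1, a secreted relative of fibrinogen, fell 3.04-fold with DDP_apoEV, and its 1.21-fold lower level with STS_apoEV was not called alone (adjusted p 0.0512). F7, coagulation factor VII, was at or below 2.41 CPM.

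HNF4A, a liver and gut transcription factor and the 1 hepatocyte marker tested, measured 14.97, 14.02 and 14.4 CPM in control, 7.81, 7.31 and 8.64 under DDP_apoEV and 11.5, 10.1 and 9.22 under STS_apoEV. Every vesicle library was below every control library. Summed hepatocyte markers ran from 14.6 to 15.9 CPM in control, from 7.81 to 8.90 under DDP_apoEV and from 10.4 to 13.6 with STS_apoEV. HNF4A made up most of that sum in every group, so the sum is not a separate result. The part of these markers in the fibrinogen result was not tested. In the mucin and goblet list, 2 of 14 were common lower, 14.3% against 4.8% of all genes. They were FOXA3 and the sialyltransferase ST6GALNAC1 (−2.92 and −1.01 on the log2 scale). The list medians were −1.39 with DDP_apoEV and 0.41 with STS_apoEV.

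Transporters of small acids shifted among themselves. Of 14 monocarboxylate transporter and partner genes tested, 4 were common higher, 28.6% against 3.88% of all genes, and 3 common lower, 21.4% against 4.8%. SLC16A7, which imports pyruvate and lactate with high affinity, fell, at 17.2, 18.7 and 16.7 CPM in control, 3.94, 5.61 and 5.65 under DDP_apoEV and 5.89, 4.72 and 7.88 under STS_apoEV. SLC16A3, which exports lactate, measured 22.4, 23.3 and 28.2 CPM in control, 29.5, 31.1 and 28.3 under DDP_apoEV and 49.3, 56.1 and 42.7 under STS_apoEV. SLC16A4 measured 44.4, 45.9 and 50.9 CPM in control, 56.5, 63.7 and 59.8 under DDP_apoEV and 91.4, 87.6 and 93.97 under STS_apoEV. Both were higher with STS_apoEV than with DDP_apoEV (adjusted p 6.34e-07 and 3.24e-07). With DDP_apoEV alone SLC16A3 was not called (adjusted p 0.09), and its lowest DDP_apoEV library was just above control library 3. SLC16A5 and SLC16A13 changed by −0.33 and −0.49 on the average log2 scale. SLC16A3 overlaps CSNK1D on the other strand.

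In the glycolysis and hypoxia list, 6 of 26 tested were common lower, 23.1% against 4.8% of all genes. Another 2 were common higher, 7.69% against 3.88%, and the median average change was −0.02. VEGFA, the angiogenic growth factor, measured 31.4, 28.1 and 25.5 CPM in control, 16.9, 18.1 and 18.4 under DDP_apoEV and 18.8, 18.7 and 17.5 under STS_apoEV. The types did not differ by the test (adjusted p 0.806), with an interval of −0.19 to 0.27. SLC2A3, a neuronal-type glucose transporter, measured 28.2, 29.5 and 25.9 CPM in control, 12.8, 13.9 and 14.99 under DDP_apoEV and 18.9, 20.98 and 22.8 under STS_apoEV, lower with DDP_apoEV than with STS_apoEV (adjusted p 1.11e-04). ALDOC, an aldolase, fell 2.04-fold on average, and PGK1, a glycolytic kinase, 1.15-fold. PFKFB4 and PDK1, which steer glucose carbon, rose 1.54-fold and 1.48-fold. The common call of SLC2A1 was lost without control library 1 or 3, DDP_apoEV library 3 or STS_apoEV library 3.

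Drug pumps were mixed, with 3 of 15 tested common lower, 20% against 4.8% of all genes, and 2 higher, 13.3% against 3.88%. ABCG2, which exports many drugs, measured 178, 173 and 186 CPM in control, 120.5, 123 and 137 under DDP_apoEV and 109.8, 116 and 126 under STS_apoEV. The 6 vesicle libraries interleaved, and the interval of their difference was −0.27 to 0.04. ABCB1, the multidrug pump P-glycoprotein, measured 4.69, 4.31 and 2.71 CPM in control, 0.125, 0.366 and 1.08 under DDP_apoEV and 1.33, 1.35 and 1.55 under STS_apoEV. ATP7A, a copper exporter that also handles platinum, fell 1.34-fold. Its copper importer counterpart SLC31A1 rose by 0.26 on the average log2 scale, and TMEM205 rose by 0.49. ATP7A shares span with PGK1 and TMEM205 with RAB3D.

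MT2A, a metallothionein that binds zinc and copper, rose. It was the 1 common gene of 6 metallothioneins tested. Its promoter is shown because metal response elements, the letters TGCNCNC bound by the metal sensor MTF1, occur 7 times there. They stand in capitals, on both strands, and the window printed is chr16:56608334-56608583 on the plus strand (GRCh38.p14), the 250 bases before the gene start in RefSeq.
MT2A: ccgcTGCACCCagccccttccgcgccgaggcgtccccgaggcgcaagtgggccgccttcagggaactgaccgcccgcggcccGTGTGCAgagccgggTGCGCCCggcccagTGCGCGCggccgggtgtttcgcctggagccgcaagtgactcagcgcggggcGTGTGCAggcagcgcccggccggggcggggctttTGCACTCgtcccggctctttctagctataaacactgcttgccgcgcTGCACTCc
At least 1 match occurs in 48.38% of all promoters, 56.18% of those of tested genes and 56.03% of those of common higher genes. How many other promoters hold as many as the 7 matches of MT2A was not counted. MT2A measured 61.2, 52.3 and 45.1 CPM in control, 165, 134 and 154 under DDP_apoEV and 188, 205 and 225 under STS_apoEV, with the groups in the order control, DDP_apoEV, STS_apoEV and no overlap. The rise was 2.85-fold and 3.89-fold, a difference of 0.45 ± 0.0963. Metallothioneins are near-identical copies, so reads of MT2A may be split with others.

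STC1, the hormone stanniocalcin-1, was named after its values were seen and measured 5.27, 7.46 and 5.83 CPM in control, 17.7, 16.3 and 16.9 under DDP_apoEV and 37.9, 35.7 and 35.1 under STS_apoEV. STC2, its relative and a target of the stress factor ATF4, measured 12.2, 11.8 and 10.1 CPM in control, 24.9, 24.9 and 18.2 under DDP_apoEV and 23.98, 25.6 and 23.7 under STS_apoEV. STC1 rose 2.74-fold and 5.85-fold, and STC2 1.998-fold and 2.15-fold with an interval of the difference of −0.14 to 0.35. STC2 was the 1 common member of 28 ATF4 response genes tested. In the neuropeptide and secretogranin list, 2 of 11 tested were common higher, SCG2 and PCSK1, 18.2% against 3.88% of all genes. The 1 common lower was NPY1R, 9.09% against 4.8%. PCSK1, the convertase that cuts prohormones in the same granules that hold SCG2, rose by 1.90 and 2.81 on the log2 scale at no more than 2.38 CPM. NPY1R, a neuropeptide Y receptor, changed by −3.68 with DDP_apoEV and −0.78 with STS_apoEV.

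Genes for the recognition and uptake of apoptotic cells moved in both directions. Of 24 tested, 2 were common higher and 3 lower, together 20.8% against 8.68% of all genes, and the list median was −0.02. MFGE8, a bridge between phosphatidylserine and integrins, measured 28.96, 33.7 and 37.5 CPM in control, 44.4, 51.3 and 43.96 under DDP_apoEV and 62.5, 65.8 and 64.7 under STS_apoEV. CD47, the signal that tells phagocytes not to engulf, measured 75.5, 79.3 and 66.6 CPM in control, 97.8, 92.5 and 94.2 under DDP_apoEV and 89.2, 84.9 and 98.3 under STS_apoEV. SIRPA, the receptor for CD47, measured 26.7, 24.3 and 28.2 CPM in control, 21.5, 21.6 and 17.7 under DDP_apoEV and 18.4, 20.2 and 17.2 under STS_apoEV. MFGE8 rose more with STS_apoEV (adjusted p 1.03e-04), and the intervals of CD47 and SIRPA were −0.23 to 0.10 and −0.36 to 0.11. ELMO1, which links uptake receptors to actin, changed by −1.22 on the average log2 scale, and ANXA5, which binds phosphatidylserine, by −0.30.

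NRF2 targets, the detoxification genes that A549 cells express at high level, had 5 of 29 common lower and 0 higher, with a median of −0.10. That is 17.2% lower, against 4.8% of all genes. AKR1B10 measured 6353, 6343 and 6522 CPM in control, 4506, 3971 and 4536 under DDP_apoEV and 5181, 5132 and 5708 under STS_apoEV, with DDP_apoEV the lowest. GCLM, a subunit of glutathione synthesis, UGDH and AKR1C2 fell 1.24-fold, 1.28-fold and 1.25-fold on average. AKR1C2 has close paralogs. Of 19 endoplasmic reticulum genes, 3 were common lower (15.8%), namely the stress factor XBP1 (−0.40), DNAJB11 (−0.26) and CANX (−0.33), the last called only with control library 2 included. Fatty acid synthesis genes had 2 common higher and 2 lower of 18, together 22.2% against 8.68%. The actin and SRF list had 1 higher (PDLIM7, 0.87) and 3 lower of 20 (CNN3, TPM4 and CALD1), together 20%. TPM4 lost its call without control library 2, CALD1 in 5 fits that left out a library, and ELOVL1 of the fatty acid list in 5.

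Further lists held 2 or fewer common genes, where 3.88% of all tested genes were common higher and 4.8% common lower. Interferon-stimulated genes had 2 of 22 common higher (IRF1 and IFIH1), MHC class I genes 2 of 8, p53 targets 1 of 25 (the death receptor TNFRSF10B, 0.29), lysosomal genes 1 of 30 (the protease CTSB, 0.67), nuclear respiratory chain genes 1 of 33 (COX4I1) and ribosome biogenesis genes 1 of 33 (ODC1). Heat shock chaperones had 2 of 21 common lower, DNAJB1 and HSPH1. CDKN1A, the p53-driven cell cycle inhibitor, was not common, at −0.27 with DDP_apoEV and 0.44 with STS_apoEV. None of the 4 tested alveolar type II markers was called by edgeR's test of the average contrast.

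**Figure D4:**
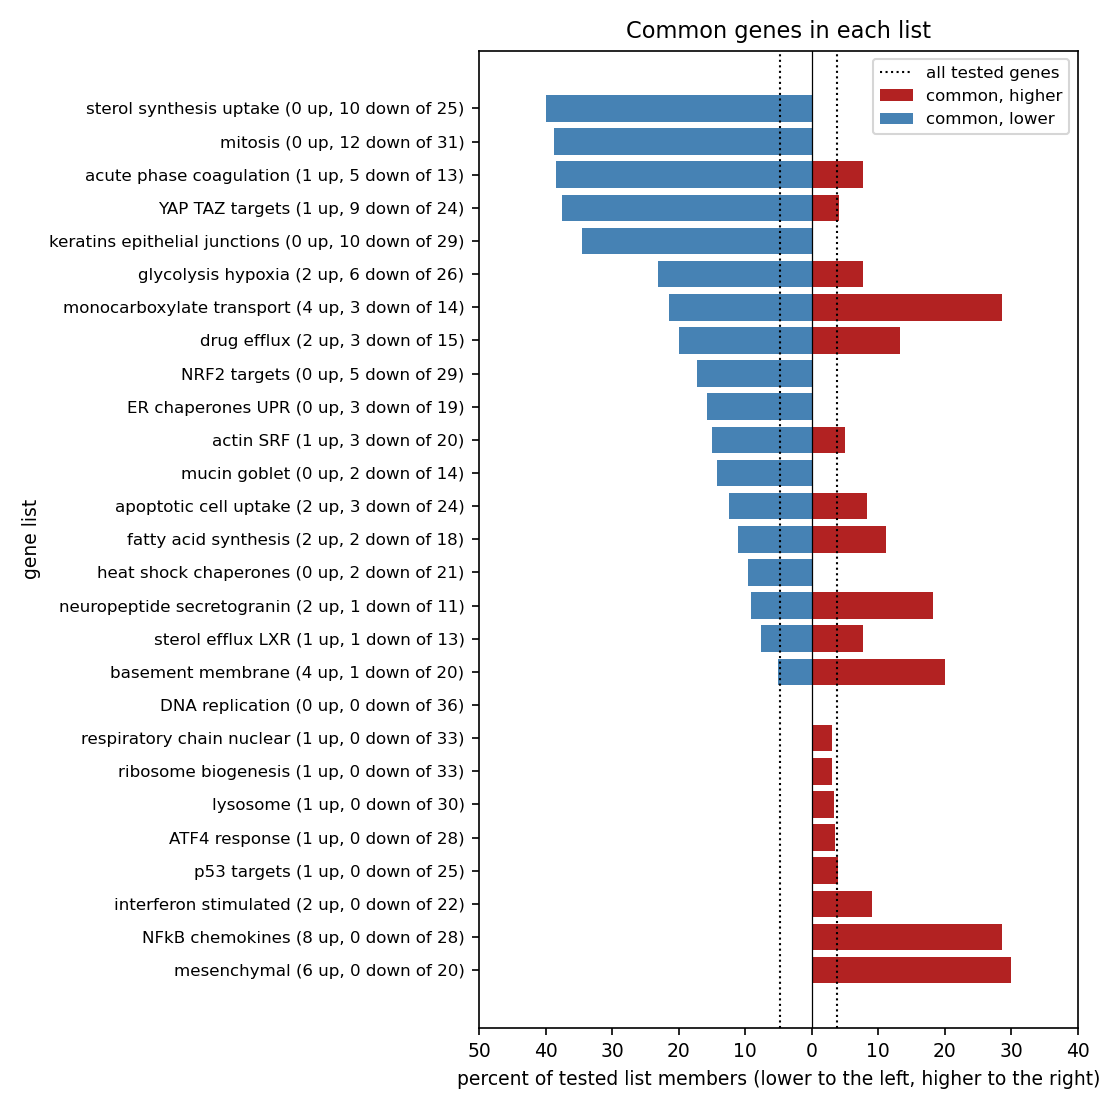
Percent of the tested members of each gene list with at least 10 tested, cell type marker and A549 identity lists left out, that were common lower (blue, to the left) or common higher (red, to the right), with dotted lines at 4.8% lower and 3.88% higher, the shares over all tested genes. Of the lists drawn, the longest blue bars are those of sterol synthesis, mitosis, acute phase, YAP and TAZ targets and keratins, and the longest red bars those of mesenchymal, NF-kB and monocarboxylate genes.

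The common genes shared features that the choice did not use. Protein-coding genes made up 1302 of them, or 88.5%, against 75.6% of all tested genes, and the others included 46 long intergenic RNAs (3.13% against 4.31%), 37 antisense genes (2.52% against 6.10%) and 28 unannotated transcripts (1.90% against 2.76%). The median length of the coding members was 5970 bases, against 5405 bases for all tested coding genes. Read depth was also higher, as given above, and its part in these features was not tested.

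Some transcripts of the mitochondrial genome were among the higher genes. Of 35 tested, 10 were common higher and 0 lower, namely 4 of 13 protein-coding genes and 6 of 20 transfer RNAs. Over all tested genes 3.88% were common higher. MT-ND1, a subunit of respiratory complex I, measured 4913, 5250.4 and 5228 CPM in control, 6469.9, 6654 and 7249 under DDP_apoEV and 5798, 6117 and 6198 under STS_apoEV. MT-ND6, a complex I subunit and the one protein gene of the light strand, measured 711, 663 and 722 CPM in control, 1012, 881 and 987 under DDP_apoEV and 835, 867 and 906 under STS_apoEV. MT-ND5 measured 1746, 1875 and 1810.0 CPM in control, 2417, 2517 and 2601 under DDP_apoEV and 2247, 2165 and 2207 under STS_apoEV. For all 3 the vesicle libraries lay above control, and the mean was higher with DDP_apoEV. MT-ND2 and the transfer RNAs MT-TL1, MT-TW, MT-TC, MT-TY, MT-TK and MT-TT completed the 10. The share of all counts from this genome was 11.4% to 12.5% in control, 12.1% to 13.1% with DDP_apoEV and 12.7% to 13.1% with STS_apoEV, and its part in these results was not tested. The ribosomal RNA MT-RNR2 was not called, at an average log2 change of −0.04. Abundant protein-coding transcripts that were not called included MT-CO1 (−0.04), MT-CO2 (0.13), MT-CO3 (0.17) and MT-ND4 (0.09).

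The common genes were not spread evenly over chromosomes. On chromosome 9, 55 of 689 tested genes were common higher, which is 7.98%, and 25 were common lower, 3.63%. The highest share of common higher genes on any other chromosome was 5.11%, on chromosome 15. The median change of all tested chromosome 9 genes was 0.11 on the log2 scale with both DDP_apoEV and STS_apoEV, whereas chromosome 19 had 0.01 and 0.13. Over 536 coding genes of chromosome 9, the median log2 CPM relative to the control mean was 0.01, −0.02 and 0.00 in the control libraries. With DDP_apoEV it was 0.11, 0.12 and 0.10, and with STS_apoEV it was 0.08, 0.10 and 0.07. The median over the pooled coding genes outside chromosome 9 lay between −0.01 and 0.01 in every library. That pooled value does not describe single chromosomes. Over all tested genes, chromosome 17 had medians of 0.05 with DDP_apoEV and 0.07 with STS_apoEV, and chromosome 18 had −0.06 and −0.04. The chromosome 9 pattern was noticed in the data and was not tested. ABCA1 and TNC are chromosome 9 genes among those described, and their changes were far larger than the chromosome's median.

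**Figure D5:**
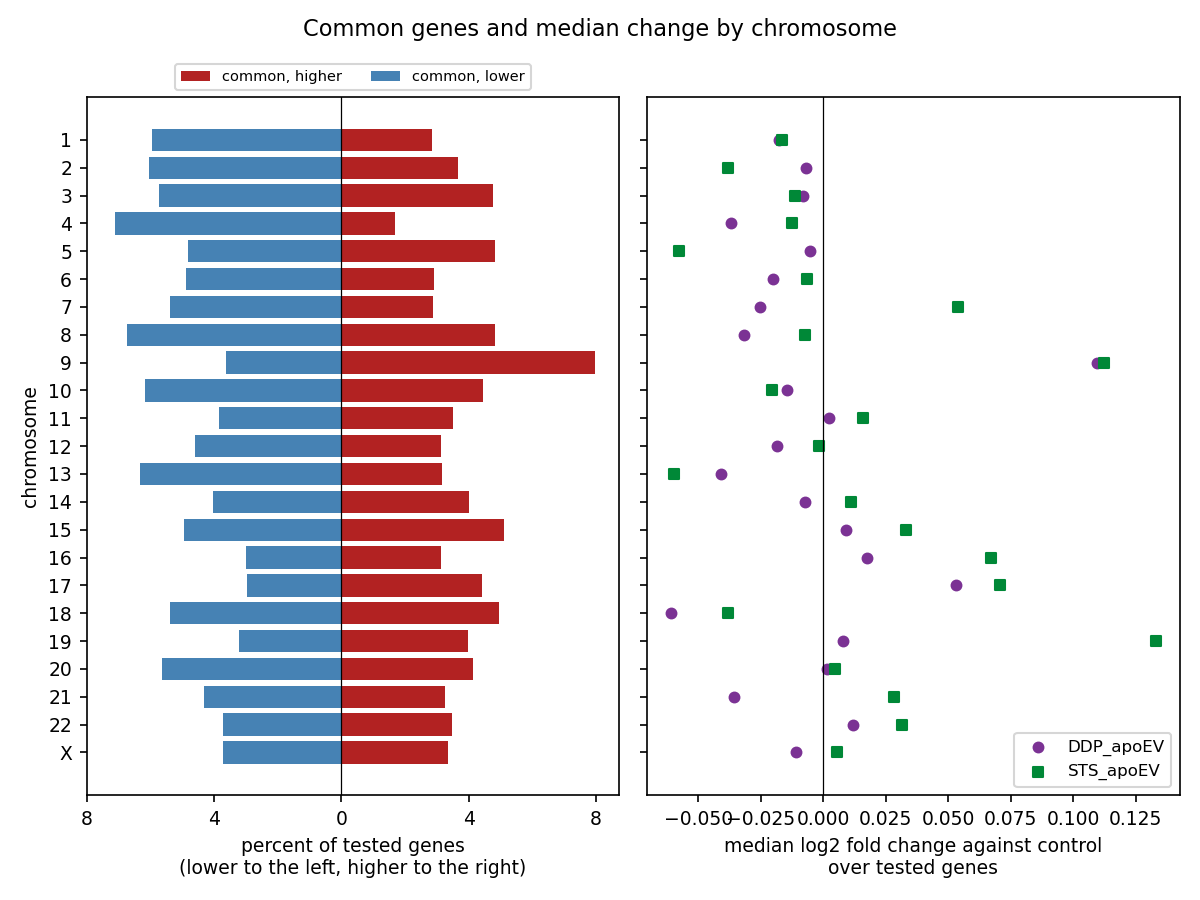
Left, percent of the tested genes of each chromosome that were common lower (blue) or common higher (red). Right, median log2 fold change over all tested genes of each chromosome with DDP_apoEV (circles) and STS_apoEV (squares), where chromosome 9 stands at 0.11 for both.

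GAPDH and ACTB, often used as references, were not common. GAPDH had an average log2 change of 0.12 ± 0.0604, and ACTB fell with STS_apoEV alone, at −0.69 against −0.02 with DDP_apoEV.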

How the data were processed

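Per the labels' protocols, TRIzol was used to extract RNA and a NEBNext Ultra kit to make the 9 libraries. The submitters' processing notes list featureCounts 1.5.0-p3, StringTie 1.3.3b, HISAT2 2.0.5, limma and Subread, and the build hg38, with no roles or order. The authors deposited 2 tables of 62257 rows, one of raw counts as whole numbers and one of FPKM, in which fragments are divided by the length of the gene and by sequencing depth. Unannotated rows, 705 in number, held 0.313% to 0.357% of the counts. Gene coordinates are those of the deposited tables, gene types come from GENCODE v29, and promoters come from RefSeq (GRCh38.p14).

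Titles of the samples gave the groups and the replicate numbers. The counts were fitted with edgeR 4.0.16 (R 4.3.3), robust quasi-likelihood, TMM scaling, the default expression filter and all 9 libraries without covariates, and p-values were adjusted by Benjamini and Hochberg over all 16947 genes. All adjusted p-values of genes are from this fit. The SE is the log2 fold change divided by the square root of F, and the 95% intervals of the difference use the fitted degrees of freedom. CPM values of genes use TMM-scaled totals, and summed markers use unscaled totals. The biological coefficient of variation was 0.0992.

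The members, the 36 gene lists and the naming rule were chosen with earlier results of these data known. The rule named the 14 risen and 14 fallen protein-coding common genes with the largest smaller change, where the mean log2 CPM was 1 or more, up to 4 common members of each list with at least 3, the 10 closest matches, and CDH1, VIM, MKI67, CDKN1A, GAPDH and ACTB. Several genes that met the rule are not reported here, and others were named after their values were seen. Counts for the average contrast were also simulated over 16947 genes. Only 100 genes set to change 1.5-fold and 100 set to change 2-fold differed, equally with both vesicle types. There edgeR called 57 and 75 of them, and 9 calls, or 6.38%, were false. In the data far more genes were called and the vesicle types differed, so these shares do not carry over to it. Alternatives were other scalings and filters, DESeq2 1.42.0, limma-voom and limma on log2 FPKM (limma 3.58.1), other common rules, a replicate block, the vesicle libraries as 1 group and each library left out.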

Additional observations from a re-analysis of the deposited data

How the results depend on the processing

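Median-of-ratios and upper-quartile scaling, other count filters, DESeq2 and limma-voom kept each count within 1.5 times its reported value. With limma on FPKM values, for genes averaging 1 or more, pseudocounts of 1 and 0.1 before the log2 step called 2042 and 2044 genes by the average contrast (930 and 915 higher, 1112 and 1129 lower) instead of 3171, among 12647 genes tested. Without that filter, a pseudocount of 1 called 1185 (537 higher, 648 lower) and left 847 common genes (371 and 476). Treating the 6 vesicle libraries as 1 group, which puts the difference between types into the error, called 410 (202 higher, 208 lower), left 409 common (202 and 207) and called 65 of the common genes named by rule, all of which were called with separate groups. Requiring a call in each type gave 892 common genes (410 and 482), and requiring 1.5-fold in both gave 461 (223 and 238).

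Leaving out 1 library gave 2176 to 3231 called genes (877 to 1374 higher, 1299 to 1857 lower) and 1399 to 1630 common genes, and 1022 of the 1471 (424 higher, 598 lower) were common in each of these fits. Of those named by rule 95 were, the exceptions being CALD1, CANX, CSF2, ELOVL1, EPCAM and TPM4. None of the 134 genes traced through the alternatives reversed its average direction in any of those run. With a replicate block 1393 genes were common, 1392 of them shared with the 1471. The numbers did not pair the libraries: deviations of same-numbered libraries correlated at −0.08 to 0.05, and 0 of 9 libraries matched best with their own number in both other groups. Depth limits genes near 1 CPM, such as CSF2 and F7.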
